A study of Mus musculus with 2 samples.

Results

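The collagen genes of the mouse are described here in the embryonic central nervous system. They were taken as every protein-coding gene whose symbol is Col, a number, the letter a and a number, which gave 44 of the 21474 protein-coding genes in the deposited gene tables. No measured value entered that choice. By the kind of structure they build, 11 are fibrillar, 6 belong to type IV of basement membranes and 27 are other collagens.

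Collagens are secreted proteins of which each molecule is a helix of intertwined chains. Every helical stretch repeats glycine and 2 further residues, because only glycine is small enough to sit inside the helix. Fibrillar collagens pack into the rope-like fibrils of connective tissue and cartilage, type IV collagens form the sheet beneath epithelia and around vessels, and the remaining kinds decorate fibrils, anchor epithelia, form fine filaments or stay in the cell membrane. In the developing nervous system, collagens are known mainly from the meninges, the vessels and the basement membrane that encloses the neural tube.

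Polyadenylated RNA, depleted of ribosomal RNA, was sequenced as strand-specific paired-end libraries. Both libraries came from C57BL/6J embryos at day 11.5, and each was made from littermates of both sexes pooled together. The labels call them biological replicates 1 and 2 of 1 tissue, give no genetic change or treatment, and name the same donor entry for both. They do not say where the dissection ended. With 1 group there was no contrast between conditions, so nothing was tested, and an SD over n = 2 measures only the spread between these samples, which may be technical.

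The expected counts on Ensembl genes summed to 108007021 in replicate 2 and 120461126 in replicate 1. All 7 genes of the neural list, such as Tubb3 and Sox2, stood at 1 TPM or more in both libraries, and their summed level was 1180 TPM in replicate 2 and 1589 TPM in replicate 1. Markers of other cells were read too, and several of those lists were higher in replicate 2. The 11 mesenchyme and meninges genes summed to 623 TPM in replicate 2 and 337 TPM in replicate 1, with all 11 at 1 TPM or more in both. Zic1 was the largest part of both sums, at 210 TPM in replicate 2 and 123 TPM in replicate 1. Its counts went the other way, with 23241 in replicate 2 and 31671 in replicate 1. By counts scaled for library size, Zic1 and Foxd1 were lower in replicate 2 and the other 9 were higher. The 11 cartilage and sclerotome genes summed to 137 TPM in replicate 2 and 77.02 TPM in replicate 1, and 7 reached 1 TPM in both. Sox9 was the largest part of both sums, at 56.3 TPM in replicate 2 and 46.2 TPM in replicate 1. Pax1, Pax9, Matn1 and Acan lay between 0.04 and 0.63 TPM in replicate 1. Skeletal muscle genes, 7 in all with 2 at 1 TPM or more in both, summed to 480 TPM in replicate 2 and 106 TPM in replicate 1. Most of both muscle sums was Actc1, at 372 TPM in replicate 2 and 102 TPM in replicate 1. Myod1 was at 19.4 TPM in replicate 2 and 0.15 TPM in replicate 1. Endothelial genes summed to 293 TPM in replicate 2 and 232 TPM in replicate 1 with 9 of 9 at 1 TPM or more, and pericyte genes to 96.9 TPM in replicate 2 and 82.8 TPM in replicate 1 with 6 of 6. Surface epithelium genes summed to 53.1 TPM in replicate 2 and 34.9 TPM in replicate 1 with 5 of 7, and notochord and floor plate genes to 55.2 TPM in replicate 2 and 78.2 TPM in replicate 1 with 5 of 6, Noto being listed at 0 in both. The 2 libraries therefore differed in several of these marker lists, and the part of this in any collagen value was not tested. In bulk RNA, fewer cells of a type and less RNA per cell cannot be told apart.

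The repeat that defines the family is written into the exons. In GENCODE M21, all 44 members encode at least 1 run of 10 or more glycine repeats, and only 95 of 21420 protein-coding genes do. The longest run had a median of 338 repeats in fibrillar members, 43.5 in type IV members, whose helices are interrupted, and 45 in the others. Col3a1 had the longest, with 344, and Col26a1 the shortest, with 23. Fibrillar genes carry the repeat in exons of 54 bases, each 6 repeats long: 305 of their 627 internal coding exons (48.6%) had that length. The share was 15.1% in the other collagens, 4.23% in type IV genes and 0.736% over all protein-coding genes. Exons of 3 of the 4 most abundant fibrillar genes are shown because they carry the unit of the helix, with every glycine codon that opens a repeat in capitals. They are mm10 sequences, 5′ to 3′ on the coding strand, from Col1a1 exon 26 (chr11:94944355-94944408, plus strand), Col2a1 exon 29 (chr15:97985863-97985916, minus strand) and Col3a1 exon 26 (chr1:45334761-45334814, plus strand).
Col1a1: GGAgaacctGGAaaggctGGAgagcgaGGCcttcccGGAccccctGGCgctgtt
Col2a1: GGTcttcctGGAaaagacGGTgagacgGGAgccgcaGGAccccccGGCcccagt
Col3a1: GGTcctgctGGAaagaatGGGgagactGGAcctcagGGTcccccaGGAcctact
All 3 hold 6 glycine codons in 18, spaced evenly. An internal exon whose length is a multiple of 9 can be skipped or added without shifting the repeat, and 83.9% of fibrillar, 47.2% of type IV and 55.9% of other collagen exons had such a length, against 14.3% of all protein-coding ones.

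**Figure D1:**
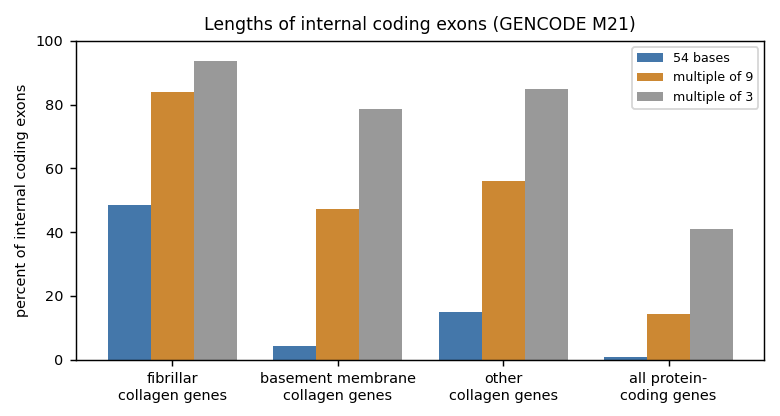
Percent of internal coding exons (vertical axis) that are 54 bases long, a multiple of 9 or a multiple of 3, in fibrillar, type IV and other collagen genes and in all protein-coding genes of GENCODE M21. The 54-base bar stands at 48.6% in fibrillar genes and at 0.736% over all protein-coding genes.

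Collagen RNA was a small share of these libraries and came from few genes. The 44 members held 0.133% of all TPM in replicate 2 and 0.134% in replicate 1, TPM being a level corrected for gene length and for library depth. Of the counts on genes, which are not corrected for length, they held 0.383% in replicate 2 and 0.416% in replicate 1. Of the members, 31 (70.5%) were at 1 TPM or more in both libraries, beside 60.8% of protein-coding genes, and 21 reached 10 TPM in both. The 4 highest members of each library held 51.5% of collagen TPM in replicate 2 and 59.6% in replicate 1. The fibrillar Col3a1, Col2a1 and Col1a2 were among them in both, joined by Col26a1 in replicate 2 and by the fibrillar Col1a1 in replicate 1. Counting only transcripts annotated as protein-coding, Col1a1 stood above Col26a1 in replicate 2 as well. Fibrillar members as a class held 58.8% of collagen TPM in replicate 2 and 68.7% in replicate 1 (63.8% ± 6.96, SD, n = 2). Type IV held 8.42% in replicate 2 and 8.74% in replicate 1, and the other collagens 32.7% in replicate 2 and 22.6% in replicate 1. The share of the other collagens was thus larger in replicate 2, with the FACIT kind at 10.6% there and 6.55% in replicate 1.

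**Figure D2:**
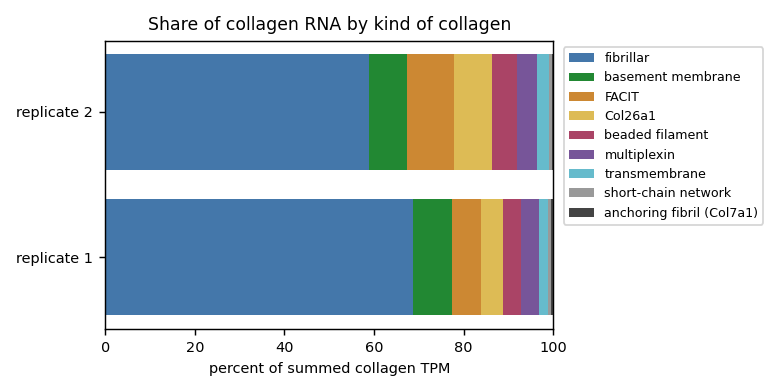
Share of summed collagen TPM (horizontal axis, percent) taken by each kind of collagen, replicate 2 above replicate 1. The fibrillar bar ends at 58.8% in replicate 2 and at 68.7% in replicate 1, and the FACIT and Col26a1 blocks are wider in replicate 2.

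**Figure D3:**
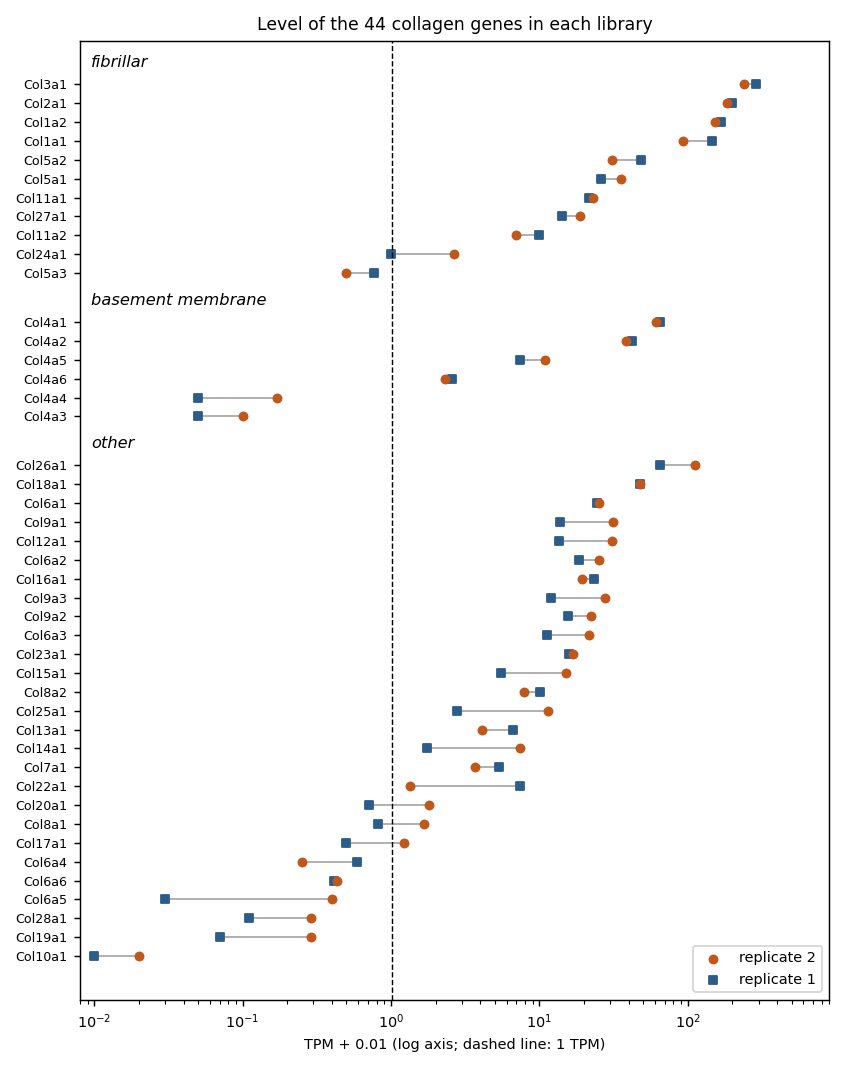
Level of each of the 44 collagen genes in TPM on a log axis, with 0.01 added so that a value of 0 can be drawn, grouped as fibrillar, basement membrane and other, and ordered by mean level within each group. Circles are replicate 2, squares are replicate 1, and the dashed line marks 1 TPM. Col3a1, Col2a1, Col1a2 and Col4a1 lie close together in the 2 libraries, while Col1a1 and Col26a1 stand apart in opposite directions. The widest gaps on this axis lie among other collagens and low members.

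Among fibrillar collagens, 9 of 11 were at 1 TPM or more in both libraries, and the class median was 30.9 TPM in replicate 2 and 25.8 TPM in replicate 1. Col3a1, the chain of type III collagen in pliable tissues and vessel walls, was the highest collagen by summed mm10 TPM. It was at 240 TPM in replicate 2 and 289 TPM in replicate 1. It was not the highest in the deposited mm9 gene table, whose first and second values are not tied to a replicate. There Col1a2 had 23.1 and 20.8 RPKM, and Col3a1 had 13.7 and 16.0 RPKM. The Col3a1 gene lies at chr1:45311538-45349706 in mm10, where the microRNA gene Gm47302 overlaps its exons on the same strand. Its full-length transcript was at 150.86 TPM in replicate 2 and 181.53 TPM in replicate 1, in the same order as the gene. Transcripts shorter than 0.5 of the longest took 37.1% of Col3a1 TPM in both libraries, but the leading one differed. In replicate 2 it was a fragment of 737 bases annotated as protein-coding, at 85.75 TPM there and 0.94 TPM in replicate 1. In replicate 1 it was a retained-intron fragment of 431 bases, at 1.99 TPM in replicate 2 and 105.03 TPM in replicate 1. Counting only transcripts annotated as protein-coding therefore gave 237 TPM in replicate 2 and 183 TPM in replicate 1, the opposite order. By that measure Col2a1, at 186 TPM, stood above Col3a1 in replicate 1.

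Type I collagen, the main fibril of skin, bone and meninges, joins 2 chains of Col1a1 with 1 of Col1a2. Col1a2 (chr6:4504814-4541544) was at 152 TPM in replicate 2 and 168 TPM in replicate 1. Col1a1 (chr11:94936224-94953042) was at 92.3 TPM in replicate 2 and 146 TPM in replicate 1. The 2 chains thus were closer in replicate 1: the ratio of Col1a1 to Col1a2 level was 0.606 in replicate 2 and 0.868 in replicate 1. By summed TPM the Col1a1 level was the lower one in both libraries. In replicate 1 that order depended on the measure. Transcripts not annotated as protein-coding took 24.6% of Col1a2 TPM there and 0.274% of Col1a1 TPM. Without them, Col1a1 was at 145.45 TPM and Col1a2 at 126.77 TPM in replicate 1, the opposite order. In replicate 2 they were at 91.36 TPM and 127.94 TPM. Counts were 71525 for Col1a1 and 58996 for Col1a2 in replicate 1, and 38474 and 49638 in replicate 2.

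Col2a1, the chain of type II collagen in cartilage, notochord and early neural epithelium, was at 183 TPM in replicate 2 and 198 TPM in replicate 1, near the levels of type I and type III. Its gene lies at chr15:97975602-98004695 on the minus strand. Exon 2 of Col2a1 encodes a cysteine-rich domain of the precursor, kept in the form called IIA and skipped in the form IIB of mature cartilage. The exon (chr15:98000403-98000606 in mm10, minus strand, 204 bases) is shown with its 10 cysteine codons in capitals.
Col2a1 exon 2: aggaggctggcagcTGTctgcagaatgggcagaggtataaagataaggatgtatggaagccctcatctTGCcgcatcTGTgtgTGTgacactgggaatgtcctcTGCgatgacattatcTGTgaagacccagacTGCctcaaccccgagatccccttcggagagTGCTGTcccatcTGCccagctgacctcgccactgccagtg
Unlike the helical exons above, it has no even spacing of glycine codons.

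The deposited list of splice junctions, on mm9, counts reads over each junction as a first and a second value, which no label ties to replicate 1 or 2. Of reads that either joined Col2a1 exon 2 or skipped it, 92.6% included it by the first value (exact 95% binomial interval 90.1 to 94.6) and 98.3% by the second (97.3 to 99.1). Such intervals cover counting error only, here and below. The skip was read 41 times in the first value and 16 times in the second, while the junction from exon 1 into exon 2 was read 669 times in the first and 1354 times in the second. By these reads exon 2 was joined more often than it was skipped in both values. The deposited transcript levels gave another split: transcripts with exon 2 took 100.16 TPM and those without it 60.68 TPM in replicate 2, while in replicate 1 those with it took 69.46 TPM and those without it 116.71 TPM. By that measure exon 2 was in 62.3% of the full-length Col2a1 RNA in replicate 2 and 37.3% in replicate 1 (49.8% ± 17.7, SD, n = 2). The junction reads and the estimated transcript levels thus disagreed for this exon.

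A junction absent from Ensembl 65 entered exon 3 from a donor 752 bases past exon 2. It was read 550 times in the first value and 353 times in the second, and accounted for 56.4% (53.2 to 59.6) and 38.5% (35.4 to 41.8) of the reads into exon 3 in those values. Exon 2 gave 39.4% of reads into exon 3 in the first value and 59.7% in the second. The median annotated Col2a1 intron had 2200 reads in the first value and 1110.5 in the second.

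The minor fibrillar chains of types V and XI start and regulate fibrils. Col5a1 was at 35.7 TPM in replicate 2 and 25.8 TPM in replicate 1, and Col5a2 at 30.9 TPM in replicate 2 and 48.3 TPM in replicate 1. The order of these partner chains was opposite in the 2 libraries, with a Col5a1 to Col5a2 ratio of 1.15 in replicate 2 and 0.534 in replicate 1. Transcripts shorter than 0.5 of the longest took 36.3% of Col5a1 TPM in replicate 2 and 3.41% in replicate 1, and 4.37% of Col5a2 TPM in replicate 2 and 29.2% in replicate 1. The length by which the authors divided moved with that: the effective length of Col5a1 was 5543 bases in replicate 2 and 7978 in replicate 1, and that of Col5a2 6262 bases in replicate 2 and 4650 in replicate 1. In counts, Col5a1 was the closer of the 2 to even, with 14492 in replicate 2 and 17583 in replicate 1. The type XI chains of cartilage and eye were lower: Col11a1 was at 22.9 TPM in replicate 2 and 21.7 TPM in replicate 1, and Col11a2 at 6.93 TPM in replicate 2 and 9.94 TPM in replicate 1. Col27a1, a fibrillar chain with a shorter helix, was at 18.7 TPM in replicate 2 and 14.3 TPM in replicate 1. Col24a1, of the same kind, was at 2.64 TPM in replicate 2 and 0.99 TPM in replicate 1, the last being just under 1 TPM. Its effective length was 3959 bases in replicate 2 and 6270 in replicate 1. The Col24a1 counts differed less than its TPM, with 768 in replicate 2 and 529 in replicate 1. Col5a3 was the lowest fibrillar member, at 0.49 TPM in replicate 2 and 0.76 TPM in replicate 1.

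Of the type IV chains, Col4a1 and Col4a2 of the common basement membrane network were high. Of the kidney and lung network, Col4a3 and Col4a4 were near 0 and Col4a5 was not. Col4a1 (chr8:11198423-11312826) was at 60.8 TPM in replicate 2 and 65.2 TPM in replicate 1, and Col4a2 (chr8:11312805-11449287) at 38.2 TPM in replicate 2 and 42.1 TPM in replicate 1. These genes run in opposite directions from a shared control region and supply the 2 chains of 1 trimer. Their level ratio was 1.59 in replicate 2 and 1.55 in replicate 1 (1.57 ± 0.034, SD, n = 2), the smallest SD among the 11 ratios of partner chains compared. In GENCODE M21 the genes overlap by 22 bases at chr8:11312805-11312826, printed on the strand of Col4a2 to show how close the 2 starts lie.
Col4a1 and Col4a2 overlap: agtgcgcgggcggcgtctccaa
Col4a5, the X-linked chain mutated in Alport syndrome, was at 10.9 TPM in replicate 2 and 7.36 TPM in replicate 1. Its head-to-head neighbour Col4a6, 1308 bases away and also a chain of smooth muscle and epithelial basement membranes, was at 2.31 TPM in replicate 2 and 2.58 TPM in replicate 1. The remaining pair, Col4a3 and Col4a4, starts 71 bases apart and partners Col4a5 in the kidney. Col4a4 was at 0.16 TPM in replicate 2 and 0.04 TPM in replicate 1, and Col4a3 at 0.09 TPM in replicate 2 and 0.04 TPM in replicate 1. Both are at the low end of all collagen levels, with 54 counts of Col4a3 in replicate 2 and 26 in replicate 1.

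Among the other collagens, the highest was Col26a1 (chr5:136741759-136883209), a short secreted protein with little helix, first described in testis and ovary. It stood at 112 TPM in replicate 2 and 64.7 TPM in replicate 1, and its share of collagen TPM was 8.41% in replicate 2 and 4.82% in replicate 1. In replicate 2 it exceeded Col1a1. The deposited mm9 gene table, whose RPKM values are likewise not tied to a replicate, gave Col26a1 10.4 RPKM as its first value and 17.4 as its second, so it was also among the highest collagens there.

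The multiplexins, Col18a1 and Col15a1, are basement membrane collagens whose last domains give the fragments endostatin and restin. Col18a1 was at 47.3 TPM in replicate 2 and 47.9 TPM in replicate 1, and Col15a1 at 15.01 TPM in replicate 2 and 5.51 TPM in replicate 1. The effective length of Col15a1 was 3012 bases in replicate 2 and 3805 in replicate 1. Its counts differed less than its TPM, with 3316 in replicate 2 and 1791 in replicate 1. The short form of Col18a1, known from vascular and epithelial basement membranes, begins at an upstream start, and the longer forms, known best from liver, begin downstream. Junction reads from the upstream start were 1726 against 12 from the downstream one in the first value, or 99.3% (98.8 to 99.6), and 826 against 22 in the second, or 97.4% (96.1 to 98.4). Transcript levels gave 99.3% in replicate 2 and 99.04% in replicate 1. The upstream start of Col18a1 was thus the one in use by both measures.

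In the FACIT kind, whose members sit on fibril surfaces with interrupted helices, 7 of 9 genes were at 1 TPM or more in both libraries. The 3 chains of type IX collagen, which coats type II fibrils in cartilage and vitreous, are given by summed TPM first. Col9a1 was at 31.4 TPM in replicate 2 and 13.9 TPM in replicate 1, Col9a2 at 22.1 TPM in replicate 2 and 15.5 TPM in replicate 1, and Col9a3 at 27.6 TPM in replicate 2 and 11.9 TPM in replicate 1. All 3 were higher in replicate 2. Counting only transcripts annotated as protein-coding, Col9a1 stood well above its partners in both libraries. By that measure Col9a1 was at 30.6 TPM in replicate 2 and 13.7 TPM in replicate 1. Col9a2 was at 16.4 TPM in replicate 2 and 8.58 TPM in replicate 1, and Col9a3 at 15.7 TPM in replicate 2 and 6.74 TPM in replicate 1. Col9a1 has a downstream start that gives a chain without the large amino-terminal domain, a form known from eye tissues, and an upstream start used in cartilage. All 215 deciding junction reads of the first value and all 214 of the second came from the downstream start, so that the exact 95% binomial interval of the downstream share starts at 98.3% in both values. By transcript levels the downstream share was 98.3% in replicate 2 and 99.9% in replicate 1. The upstream transcript was listed at 0.51 TPM in replicate 2 and 0.02 TPM in replicate 1.

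The 250 bases before both starts of Col18a1 and Col9a1 are given because these genes choose between them. They are RefSeq windows on GRCm38.p6, the build also called mm10, printed on the strand of the gene. Capitals mark the motifs CCAAT and GGGCGG on either strand, so that ATTGG and CCGCCC are their reverse complements. The Col18a1 windows are chr10:77166531-77166780 for the upstream start in use and chr10:77113706-77113955 for the downstream one, both on the minus strand. The Col9a1 windows are chr1:24194953-24195202 for the downstream start in use and chr1:24177360-24177609 for the upstream one, both on the plus strand.
Col18a1 upstream start: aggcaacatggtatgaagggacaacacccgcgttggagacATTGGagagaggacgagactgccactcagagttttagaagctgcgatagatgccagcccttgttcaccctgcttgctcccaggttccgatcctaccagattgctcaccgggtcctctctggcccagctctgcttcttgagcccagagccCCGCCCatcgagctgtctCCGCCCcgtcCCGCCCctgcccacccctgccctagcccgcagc
Col18a1 downstream start: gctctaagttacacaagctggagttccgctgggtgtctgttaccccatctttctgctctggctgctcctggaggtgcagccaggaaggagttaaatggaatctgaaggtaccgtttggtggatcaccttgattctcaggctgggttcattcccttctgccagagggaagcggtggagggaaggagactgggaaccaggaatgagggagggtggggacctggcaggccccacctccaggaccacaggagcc
Col9a1 downstream start: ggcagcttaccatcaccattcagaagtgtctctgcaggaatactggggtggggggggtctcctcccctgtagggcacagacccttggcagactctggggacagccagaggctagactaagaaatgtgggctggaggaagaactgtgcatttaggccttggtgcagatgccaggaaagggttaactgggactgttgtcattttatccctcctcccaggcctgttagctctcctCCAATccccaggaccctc
Col9a1 upstream start: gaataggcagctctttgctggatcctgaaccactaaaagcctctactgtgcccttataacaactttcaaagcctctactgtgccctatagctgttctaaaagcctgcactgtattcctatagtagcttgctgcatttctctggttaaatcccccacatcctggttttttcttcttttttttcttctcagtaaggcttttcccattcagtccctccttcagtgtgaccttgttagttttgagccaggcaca
The window at the Col18a1 upstream start held 3 GGGCGG and 1 CCAAT, and that at the Col9a1 downstream start 1 CCAAT, while the other 2 windows held none. TATAAA was found in none of the 4. Over 38 windows of 35 members, GGGCGG stood in 57.9%, beside 32.7% of 32851 windows of all genes. CCAAT stood in 34.2% of the collagen windows and 33.8% of all windows, and TATAAA in 13.2% and 12.4% of them. A match is a run of letters and does not show that a factor binds there.

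Of the other FACIT genes, Col12a1, a tension-bearing collagen of tendon and fascia, was at 30.8 TPM in replicate 2 and 13.6 TPM in replicate 1. Col16a1, a broadly made fibril partner, was at 19.3 TPM in replicate 2 and 23.1 TPM in replicate 1. For both genes most TPM came from short transcripts: 68.1% in replicate 2 and 61.7% in replicate 1 for Col12a1, and 53.7% in replicate 2 and 54.1% in replicate 1 for Col16a1, so that their levels rest in large part on transcripts shorter than 0.5 of the longest. Col14a1, a regulator of fibril width in skin and tendon, was at 7.43 TPM in replicate 2 and 1.75 TPM in replicate 1. Col22a1, a collagen of tissue junctions such as that between muscle and tendon, was the reverse, at 1.33 TPM in replicate 2 and 7.40 TPM in replicate 1. For Col22a1 the deposited effective length was 8619 bases in replicate 2 and 3056 in replicate 1, and short transcripts took 0% of its TPM in replicate 2 and 69.3% in replicate 1, so the difference in TPM is larger than that in counts, which were 843 in replicate 2 and 1932 in replicate 1. Col20a1 was at 1.78 TPM in replicate 2 and 0.70 TPM in replicate 1, and Col19a1 at 0.28 TPM in replicate 2 and 0.06 TPM in replicate 1.

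Type VI collagen forms beaded filaments around cells from the chains Col6a1, Col6a2 and Col6a3. Col6a1 was at 25.3 TPM in replicate 2 and 24.3 TPM in replicate 1, and Col6a2 at 25.2 TPM in replicate 2 and 18.6 TPM in replicate 1. Col6a3 was at 21.7 TPM in replicate 2 and 11.2 TPM in replicate 1. By summed TPM the 3 chains lay within a narrow range in replicate 2 and spread further in replicate 1. For Col6a3 the most abundant transcript in both libraries was a retained-intron fragment of 646 bases, which took 50.5% of its TPM in replicate 2 and 50.6% in replicate 1. Col6a4, Col6a5 and Col6a6, which can take the place of Col6a3, and Col28a1 lay below 1 TPM in both libraries, between 0.24 and 0.42 TPM in replicate 2 and between 0.02 and 0.58 TPM in replicate 1.

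The transmembrane collagens span the cell membrane and can be shed from it. Col23a1 was at 16.9 TPM in replicate 2 and 15.9 TPM in replicate 1. Col25a1, a neuronal collagen that in mice is needed for motor nerves to enter muscle, was at 11.4 TPM in replicate 2 and 2.78 TPM in replicate 1. Col13a1, of the neuromuscular synapse, was at 4.09 TPM in replicate 2 and 6.61 TPM in replicate 1. Of these, Col25a1 differed most between the libraries. Col17a1, of the epithelial hemidesmosome, was at 1.21 TPM in replicate 2 and 0.49 TPM in replicate 1. The short-chain collagen Col8a2, of corneal and vascular basement membranes, was at 7.91 TPM in replicate 2 and 10.1 TPM in replicate 1, and its partner Col8a1 at 1.66 TPM in replicate 2 and 0.81 TPM in replicate 1. Col10a1, made by hypertrophic cartilage, had 2 counts in replicate 2 and 0 in replicate 1. Col7a1, which forms the anchoring fibrils of skin and holds Mir711 within its exons, was at 3.67 TPM in replicate 2 and 5.35 TPM in replicate 1.

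The difference between the libraries was measured as the log2 ratio of scaled counts, replicate 2 over replicate 1. A gene with 100 or more counts in sum was said to be past the 2-fold rule when that ratio was 1 or more in size. Of the 44 members, 42 had 100 counts. By that rule 8 members were 2-fold or more higher in replicate 2, where 5.73% of protein-coding genes and 6.51% of all genes with 100 counts were. At least 2-fold lower were 2 members, where 3.87% of protein-coding genes and 4.95% of all genes were. The median of the 42 members was −0.01, with 21 above 0 and 21 below, and that of all protein-coding genes was −0.00, with quartiles at −0.33 and 0.34.

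Fibrillar and type IV members had medians below 0, and the other collagens a median above 0. Fibrillar members had a median log2 ratio of −0.37, with none past 2-fold and 9 of 11 lower in replicate 2, although Col5a1 and Col11a1 among them were higher there by TPM. Col1a1 had the lowest ratio of them at −0.85, Col3a1 was at −0.40, Col2a1 at −0.37 and Col1a2 at −0.21. The 5 type IV members with 100 counts had a median of −0.23, with Col4a1 at −0.23 and Col4a2 at −0.32, and Col4a4 alone past 2-fold. The 26 other collagens had a median of 0.62, with 17 higher and 9 lower in replicate 2, although Col6a6 and Col23a1 among the lower ones were higher there by TPM and by total count. The 9 FACIT genes had a median of 0.99, with 7 higher in replicate 2. The 5th and 95th percentiles of all protein-coding genes were −0.89 and 1.07, and all 11 fibrillar ratios lay between them. A shift of all genes by 0.11 stands behind the same ratios taken on log2(TPM + 1), where the fibrillar median was −0.14 and that of the other collagens 0.43.

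**Figure D4:**
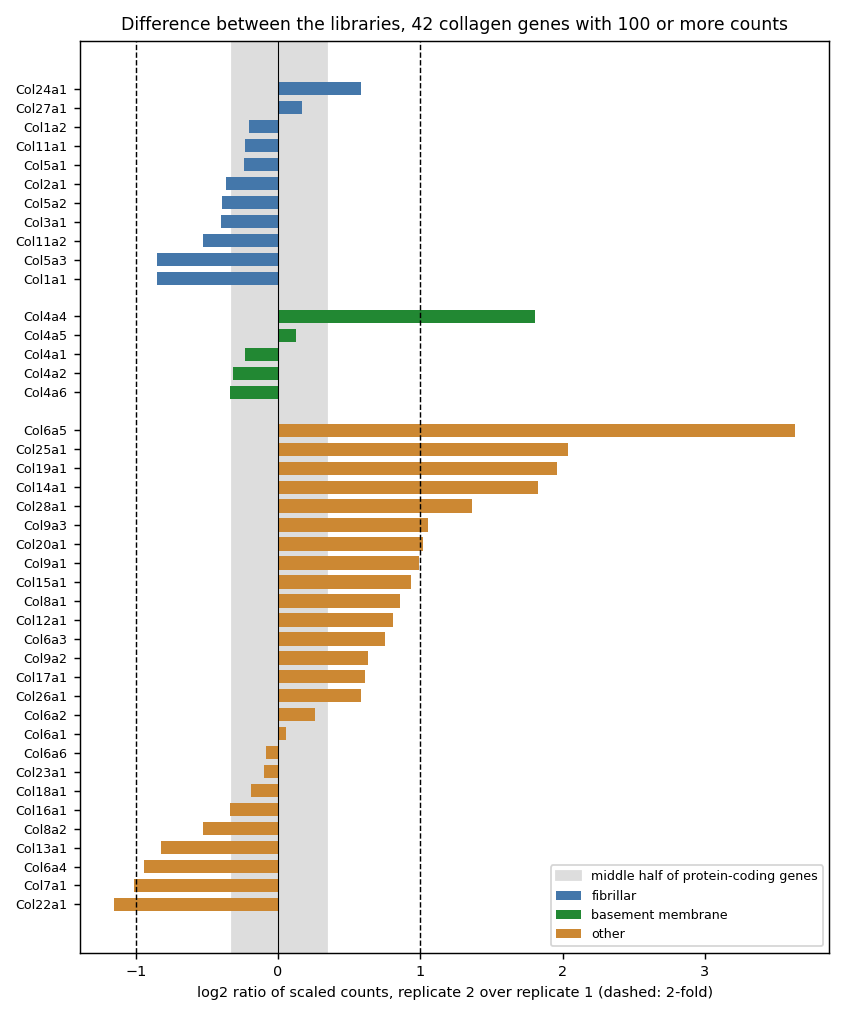
Log2 ratio of scaled counts, replicate 2 over replicate 1, for the 42 collagen genes with 100 or more counts, by class. The grey band runs from the lower to the upper quartile of all protein-coding genes, −0.33 to 0.34, and the dashed lines mark 2-fold. Fibrillar bars point mainly to the left, and 7 of the 26 other collagens pass the right-hand line.

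The members higher in replicate 2 were mostly low in level, except Col9a3, Col14a1 and Col25a1. Col25a1 had 4656 counts in replicate 2 and 1166 in replicate 1, 4.11-fold higher (3.86 to 4.39). Col14a1 had 2260 counts in replicate 2 and 657 in replicate 1, 3.54-fold higher (3.25 to 3.87). Col9a3, with 3661 counts in replicate 2 and 1814 in replicate 1, was 2.08-fold higher (1.96 to 2.20), and Col9a1 lay just under the rule at 1.98-fold (1.90 to 2.07). The largest fold rested on few reads: Col6a5 had 102 counts in replicate 2 and 8 in replicate 1, 13.1-fold higher (6.42 to 31.2). Col19a1, Col4a4 and Col28a1 had 83 to 113 counts in replicate 2 and 25 to 33 in replicate 1, and were 3.96-fold, 3.53-fold and 2.59-fold higher. Col20a1, with 442 counts in replicate 2 and 224 in replicate 1, was 2.03-fold higher (1.73 to 2.40) (counts shared with BX649560.1, whose exons overlap it on the same strand, are uncertain).

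The members lower in replicate 2 were Col22a1 and Col7a1. Col22a1 was 2.22-fold lower (2.05 to 2.41). Col7a1 had 1343 counts in replicate 2 and 2797 in replicate 1, 2.02-fold lower (1.89 to 2.16). The Col7a1 difference sat at the edge of the rule and fell short of it when libraries were scaled by total count or compared on TPM. The intervals compare these 2 libraries by their reads, not conditions.

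Several marker lists moved between the libraries in the same direction as the FACIT genes. The median log2 ratio was 1.53 for the 11 cartilage and sclerotome genes, of which 6 passed 2-fold upward in replicate 2, 0.67 for mesenchyme and meninges with 2 of 11, and 4.47 for skeletal muscle with 6 of 6. Pax1 of the sclerotome was at 15.8 TPM in replicate 2 and 0.63 TPM in replicate 1, and Acan, the cartilage proteoglycan, at 0.97 TPM in replicate 2 and 0.04 TPM in replicate 1. It was 1.23 for surface epithelium with 4 of 7 at least 2-fold higher, 0.59 for pericytes with 2 of 6 and 0.23 for endothelium with 0 of 9. Lower medians were those of the neural list at −0.52 and of notochord and floor plate at −0.41, whose lists had 1 of 7 and 2 of 5 genes at least 2-fold lower. The fibrillar median had the sign of these 2 lists: Col1a1, Col1a2 and Col3a1, known as products of mesenchyme, were lower in replicate 2 while the mesenchyme list was higher. The part of any of these cells in the collagen differences was not tested.

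Exons that were often both included and skipped lay in 3 genes. Of 2134 annotated introns of the members, 1941 (91.0%) had a read in the mm9 junction list. The share included was taken only for exons that at least 1 read skipped, and exons with no skip read are not counted. Among 93 such exons with at least 20 deciding reads in each value, in 27 genes, 80 were included in more than 90% of reads and 3 in less than 10%. The 10 between those bounds lay in Col13a1 (6), Col25a1 (3) and Col11a2 (1). All 10 had lengths that divide by 3, 7 had lengths that divide by 9, and those 7 hold a glycine codon at the start of each of their repeats. Such lengths were common in these genes, counted in 1 transcript of each. Of the internal coding exons, 37 of 39 in Col13a1, 34 of 36 in Col25a1 and 60 of 64 in Col11a2 divided by 3. In the same order, 27, 27 and 52 divided by 9. No difference of the alternative exons from these was tested. The 7 exons with an even glycine repeat are shown, on the coding strand, because skipping them shortens a helix by whole repeats. Capitals mark the glycine codons. Col13a1 lies on the minus strand of chromosome 10 and Col25a1 on the plus strand of chromosome 3.
Col13a1 chr10:61908682-61908717: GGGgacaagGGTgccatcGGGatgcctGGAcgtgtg
Col13a1 chr10:61895334-61895360: GGCcaccccGGAcctaaaGGGgagatg
Col13a1 chr10:61862015-61862113: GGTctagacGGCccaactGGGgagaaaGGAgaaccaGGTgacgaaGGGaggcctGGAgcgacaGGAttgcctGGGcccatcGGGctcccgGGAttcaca
Col13a1 chr10:61853357-61853392: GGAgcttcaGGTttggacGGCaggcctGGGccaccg
Col25a1 chr3:130535431-130535475: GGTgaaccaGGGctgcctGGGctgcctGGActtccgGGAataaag
Col25a1 chr3:130550037-130550081: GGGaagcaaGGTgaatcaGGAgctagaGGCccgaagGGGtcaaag
Col25a1 chr3:130584700-130584726: GGCaaagatGGAgaacctGGTcttgat
The first Col13a1 exon of that list was included in 50.9% of reads in the first value and 49.2% in the second, and the next, of 27 bases, in 66.8% and 77.4%. The 99-base exon was included in 86.1% and 68.6%, and the last Col13a1 exon of the list in 22.0% and 16.1%. Inclusion thus spanned most of the range within 1 gene. In Col25a1 the 3 exons, in order, were included in 51.9%, 47.0% and 64.8% of reads in the first value and in 54.5%, 20.5% and 76.4% in the second.

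The other 3 alternative exons lack an even glycine repeat along their length. The 78-base exon of Col11a2 encodes part of the variable amino-terminal region, and the 57-base and 51-base exons of Col13a1 hold stretches with no regular glycine.
Col11a2 chr17:34045771-34045848: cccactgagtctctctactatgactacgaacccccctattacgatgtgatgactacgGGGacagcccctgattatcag
Col13a1 chr10:61891208-61891264: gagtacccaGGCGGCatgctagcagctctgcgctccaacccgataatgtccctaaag
Col13a1 chr10:61903090-61903140: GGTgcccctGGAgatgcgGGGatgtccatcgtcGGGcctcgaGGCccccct
The Col11a2 exon was included in 39.6% of reads in the first value and 31.9% in the second, the 57-base Col13a1 exon in 40.0% and 25.5%, and the 51-base one in 82.2% and 79.2%. Skip reads ranged from 5 to 131 per value over the 10 exons, so the shares carry wide counting error.

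**Figure D5:**
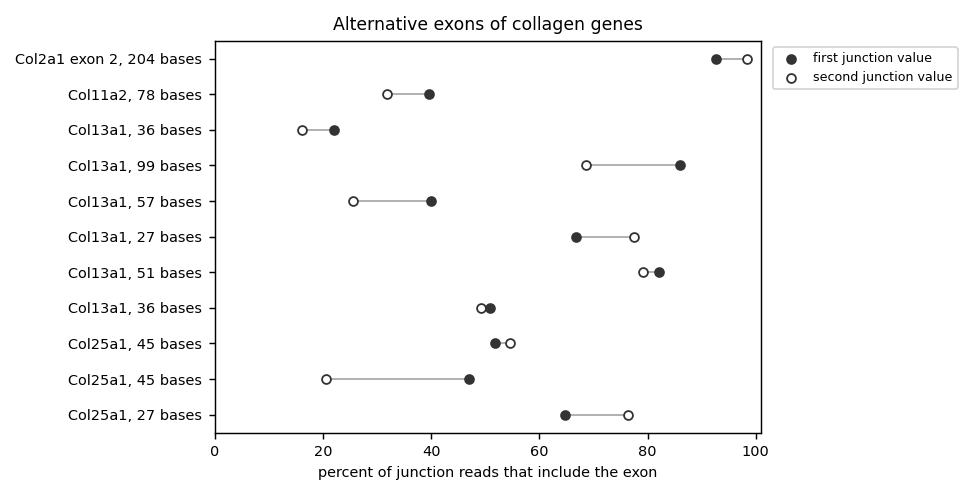
Percent of junction reads that include the exon (horizontal axis) for Col2a1 exon 2 and the 10 collagen exons between 10% and 90%, named by gene and length in bases. Filled circles are the first junction value and open circles the second, neither tied to a replicate. Col2a1 exon 2 lies at 92.6% and 98.3%, and the 6 exons of Col13a1 span 16.1% to 86.1%.

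The most abundant transcript was the same in both libraries for 24 of the 31 members at 1 TPM or more (77.4%), beside 79.2% of protein-coding genes with several transcripts at that level. Counting only transcripts annotated as protein-coding, it was the same for 15 of 23 members with several of them (65.2%), beside 84.2% of protein-coding genes. Over transcripts of any type, the most abundant one differed for Col2a1, Col4a5, Col7a1, Col13a1, Col14a1, Col15a1 and Col22a1. Where it was the same, the transcript was often nearly alone: it took 99.4% of Col4a1 TPM in replicate 2 and 95.6% in replicate 1, 99.6% of Col4a2 TPM in replicate 2 and 98.9% in replicate 1, and 98.8% of Col23a1 TPM in replicate 2 and 98.9% in replicate 1.

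The levels on mm10 ordered the members much as the deposited mm9 table on Ensembl 65 models did. Across 44 genes, which are not independent replicates and share both libraries, the Spearman correlation of mean TPM with mean mm9 RPKM was 0.986 and the Pearson correlation of log2(value + 1) was 0.95. The highest member differed: by mean mm9 RPKM it was Col2a1 at 22.6, with Col3a1 at 14.9. The mm9 values were lower in size, and only 21 members reached 1 RPKM in both. The models assembled by Cufflinks ordered the members less like mm10, with a Spearman correlation of 0.749 over 43 genes. For Col19a1 the overlapping assembled model was listed at 154 and 768 RPKM, where the Ensembl model was at 0.0091 and 0.037 RPKM.

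The machinery that modifies collagen chains was present throughout. All 15 genes of hydroxylation and glycosylation were at 1 TPM or more in both libraries, led by Ppib, a prolyl isomerase, at 371 TPM in replicate 2 and 266 TPM in replicate 1, P4hb, a subunit of prolyl hydroxylase, at 308 TPM in replicate 2 and 346 TPM in replicate 1, and P3h3, of a lysyl hydroxylation complex, at 106 TPM in replicate 2 and 90.3 TPM in replicate 1. Their median log2 ratio was 0.34, with P3h2 at 1.09 alone past 2-fold. Of the 10 folding and export genes, Serpinh1, the collagen chaperone HSP47, led at 397 TPM in replicate 2 and 253 TPM in replicate 1, before Mia3, which loads procollagen into carriers, at 83.6 TPM in replicate 2 and 88.6 TPM in replicate 1, and Sec23a of the vesicle coat at 51.1 TPM in replicate 2 and 37.0 TPM in replicate 1. Their median log2 ratio was 0.49, and Creb3l2, a transcription factor for secretory genes, was past 2-fold at 1.25. By summed TPM Serpinh1 thus was above every collagen gene in replicate 2 and below Col3a1 in replicate 1. Counting only its transcripts annotated as protein-coding, Col3a1 was at 183 TPM in replicate 1, below the summed Serpinh1 level.

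The 14 genes of procollagen processing and crosslinking had a median log2 ratio of 0.49. They were led by Pxdn, which crosslinks type IV collagen, at 114 TPM in replicate 2 and 77.4 TPM in replicate 1, Pcolce, an enhancer of procollagen cleavage, at 86.3 TPM in replicate 2 and 49.5 TPM in replicate 1, and Bmp1, the procollagen C-proteinase, at 77.4 TPM in replicate 2 and 38.5 TPM in replicate 1. Loxl4, a lysyl oxidase, was past 2-fold at 1.53 and Tll2, a relative of Bmp1, was at −1.13. The 10 receptor genes with 100 counts had a median of −0.02, and Ddr2, a receptor for fibrillar collagen, was past 2-fold at 1.06. Itgb1, the shared integrin chain, led that list at 120 TPM in replicate 2 and 119 TPM in replicate 1, followed by Adgrg1, a receptor for Col3a1 in the developing cortex, at 87.2 TPM in replicate 2 and 93.9 TPM in replicate 1, and Ddr1 at 71.8 TPM in replicate 2 and 101.65 TPM in replicate 1.

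Breakdown genes had a median log2 ratio of 0.56 over 10 genes with 100 counts, and none was past 2-fold. Their highest were the proteinases Mmp14, at 95.6 TPM in replicate 2 and 69.1 TPM in replicate 1, and Mmp2, at 73.1 TPM in replicate 2 and 34.2 TPM in replicate 1, and the inhibitor Timp2, at 47.3 TPM in replicate 2 and 29.7 TPM in replicate 1. Of 12 partners of fibrils and basement membranes, the median was 0.59 and 2 were past 2-fold, Fn1 (fibronectin) at 1.07 and Postn (periostin) at 1.02. Sparc, a collagen-binding protein, was at 302 TPM in replicate 2 and 456 TPM in replicate 1, Agrn at 253 TPM in replicate 2 and 199 TPM in replicate 1, and Fn1 at 279 TPM in replicate 2 and 167 TPM in replicate 1. The 6 lists held, in the order given, 15, 10, 14, 10, 10 and 12 genes with 100 counts. Of these, 6 genes passed the 2-fold rule upward in replicate 2 and 1 passed it downward. Over all genes with 100 counts, 6.51% passed it upward and 4.95% downward, and no difference from those shares was tested. Dcn and Lum stand both in the partner list and in the mesenchyme list.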

How the data were processed

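The authors deposited, for each library, mm10 gene and transcript tables with expected counts, TPM, FPKM and an effective length, per the file headers, on annotation M4, per the deposited notes. They also deposited mm9 gene tables with RPKM values on Ensembl 65 and on Cufflinks models, and a junction list with a read count per replicate. No label ties these mm9 values to a sample. Annotated introns were read from the deposited Ensembl 65 exon table. Neither aligner nor quantifier is named in the sources used here.

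Symbols, gene types, exons and coordinates came from GENCODE M21 by identifier without version (42462 of 43346 genes matched), promoter windows from RefSeq on GRCm38.p6. Expected counts were rounded and scaled by TMM in edgeR 4.0.16, with the library size taken over Ensembl genes and the factor set by 18462 genes past filterByExpr, a filter chosen after the call counts of 6 filters had been compared. ERCC spike-ins (2.47% of counts in replicate 2 and 4.00% in replicate 1), phiX174 (0.827% and 0.668%) and numeric identifiers were left out. Log2 ratios used a prior count of 0.5. DESeq2 1.42.0 size factors and other settings were alternatives. The deposited lengths of a gene differ between the libraries, so TPM and count ratios can differ. Fold intervals are exact 95% binomial intervals for counting error only.

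The collagen members, gene lists, rules and sequences were chosen with earlier results of these data known. All members are named, with full values for those at 1 TPM in both libraries or past 2-fold, and in each pathway list the 3 highest genes and any past 2-fold. The rules for alternative exons, unannotated junctions and short transcripts, and the view of reads into Col2a1 exon 3, were chosen after the values were seen. Ctage5 was not matched, and Gpr56 is an older name of Adgrg1. The ratio script was tested on simulated counts.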

Additional observations from a re-analysis of the deposited data

Results flagged for a closer look

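Splice junctions absent from Ensembl 65 lay outside the gene tables and were searched among the 3031 such junctions of the collagen genes, which held 0.941% of their junction reads. Those with at least 100 reads in each value were 4, all reported here because the signal stood in data that the level comparisons did not use. Col6a2 had 1438 reads over an unannotated intron of 349 bases (1198 in the first value and 240 in the second), which was 364% and 127% of that gene's median annotated intron. GENCODE M21 holds a Col6a2 intron of the same length. Col1a2 had 1232 reads (522 and 710) over 3019 bases, 27.4% and 68.7% of its median intron. The Col2a1 junction into exon 3 described above had 903 reads (550 and 353), 25% and 31.8% of the median. Col5a2 had 599 reads (317 and 282) over 5136 bases, 54.7% and 103% of the median. None of the other 3 matched an M21 intron of the gene by length.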

How the results depend on the processing

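Of 89 alternative values, 69 stayed within the spread of the libraries, within 0.1 on the log2 scale or within 1.5 times a count. Another 20 moved further. A reversal could be scored only for the 3 median log2 ratios, by a change of sign, and 0 were scored there. The 89 include the values with 1 library left out, which, except for counts, could not move beyond that spread. As FPKM the medians were 18.9 for fibrillar, 3.85 for type IV and 4.83 for other collagens. With Col15a1 and Col18a1 counted as basement membrane, the type IV median was 9.69 TPM and the share 12.9%, and that share was 12.3% of expected counts and 10.4% of counts per base of the longest transcript. On log2(TPM + 1) the median ratios were −0.14 (fibrillar), −0.10 (type IV) and 0.43 (other). By total count they were −0.25, −0.11 and 0.74. Without a count filter, or with a minimum of 10, the type IV median was −0.053. Only 1 member, Col22a1, was at least 2-fold lower by total count, by log2(TPM + 1) and by TPM ratio without a pseudocount. Of the 8 higher members, 7 remained with DESeq2 size factors (without Col20a1) and all 8 with TMM over all genes. By log2(TPM + 1) 6 passed, 3 of them shared. By TPM ratio without a pseudocount 10 passed, 4 of them shared. By total count 10 passed, Col9a1 and Col15a1 being added. Col2a1 exon 2 was in 49.8% of RNA by transcript TPM, and the Cufflinks correlation was 0.749. The causes were not tested. With 1 library left out, values were simply those of the other: 31 to 35 members at 1 TPM, medians of 25.8 to 30.9, 4.97 to 6.59 and 6.61 to 7.91 TPM, shares of 58.8 to 68.7%, 8.42 to 8.74% and 22.6 to 32.7%, exon 2 at 92.6 to 98.3%, the Col9a1 downstream start at 100% and the Col18a1 upstream start at 97.4 to 99.3%. This says nothing of stability, since 2 values always lie within 1 SD of their mean. No paired analysis was possible because there is 1 group. Members under 100 counts were below what this depth can compare.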
